A study of Pangasianodon hypophthalmus with 14 samples.

Results

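The genes described here are the 100 rows of the tra catfish count table, of 21656 in all, whose levels at 10 and 11 days post fertilization (dpf) stood farthest above every earlier library. They were selected on CPM (counts per 1000000 counts of the library). For each row the lowest CPM of the 4 libraries of 10 and 11 dpf was divided by the highest CPM of the 10 libraries of 2 to 9 dpf, with 1 CPM added to each, and the log2 of that ratio is called the score. Rows named rpl, rps, mrp, nduf, col, slc or kcn were left out beforehand, together with 5 rows listed by identifier, so 489 rows could not be chosen. Of these, 5 scored as high as a member: LOC113525842, LOC113536204, LOC113536294, the alpha globin gene hbae5 and the collagen gene col1a2. In 321 of the 21656 rows all 4 libraries of 10 and 11 dpf exceeded all 10 earlier libraries, and the members are the top 100 of the 301 such rows that could be chosen.

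The samples were whole embryos and larvae of Pangasianodon hypophthalmus, a facultative air-breathing catfish that takes up oxygen through its swim bladder. The groups were fish of 7 ages, from 2 to 8 dpf in steps of 2 days and then daily at 9, 10 and 11 dpf, with 2 libraries each and no treatment named, and the study followed them to find genes that accompany the development of air breathing. Each replicate was a pool of 4 embryos or larvae. The methods also state that RNA of both pools was combined equally for a stage's library, so the libraries of a stage may be technical repeats, and p-values then measure only the spread between libraries.

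At this age a catfish larva has absorbed its yolk and builds the tissues of the juvenile. The stomach of a fish forms late, and its acid is pumped by the gastric H+/K+ ATPase, made of a catalytic alpha subunit (atp4a) and a beta subunit (atp4b). The wall of a gas-filled swim bladder, like that of large arteries, holds elastic fibres, in which elastin is laid down on microfibrils of fibrillin. Its inner epithelium, like that of a lung, secretes surfactant. In a whole fish, a low level of a transcript can come from fewer cells of a type or from less RNA per cell, and these cannot be told apart here.

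Of the 100 members, 52 carried a gene symbol, 19 from the count table and 33 from the RefSeq gene table of the assembly fPanHyp1.pri, and 48 were known by LOC identifier only. Scores ran from 3.96 to 0.32 with a median of 0.57. A total of 8 members scored over 2, 21 over 1, and 43 under 0.5. In 9 members the highest earlier library reached at most 10% of the mean over 10 and 11 dpf, in 47 it reached between 10 and 50%, and in 44 more than 50%. That highest earlier library belonged to 8 dpf for 44 members and to 9 dpf for 27. The 5 members with the lowest score were perm1, zgc:113337, LOC113536323, LOC113524962 and acta2, with scores from 0.34 to 0.32. The 5 rows just outside were cd74a, col21a1, LOC113540233, htra1 and LOC113523845, with scores from 0.31 to 0.29. No gap therefore separated the members from the rows below them.

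**Figure D1:**
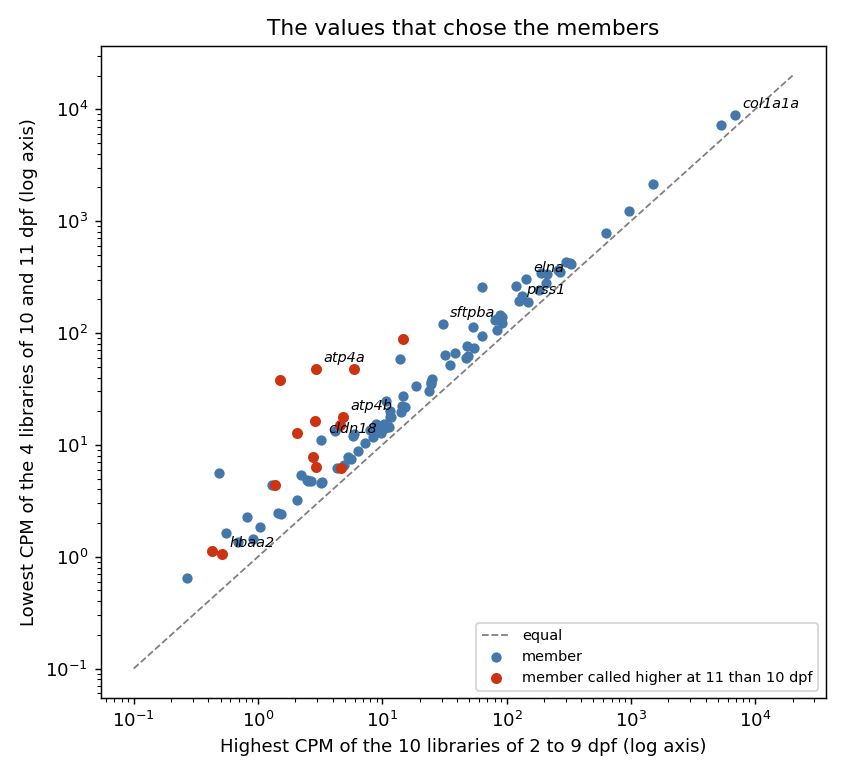
Lowest CPM of the 4 libraries of 10 and 11 dpf (vertical, log axis) against the highest CPM of the 10 libraries of 2 to 9 dpf (horizontal, log axis) for the 100 members, 1 point each; the dashed line marks equal values, and red points are the 14 members called higher at 11 than at 10 dpf. All points lie above the line because members were chosen that way, and most lie close to it.

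Library totals ranged from 4112131 to 11609823 counts, so 3 counts, taken as the detection floor, stood for 0.258 to 0.730 CPM. The members together made up 0.365 to 1.86% of counts in the 10 earlier libraries, 2.78 and 3.01% at 10 dpf, and 3.40 and 3.50% at 11 dpf. The pair at 4 dpf disagreed for many members. Among the 66 members with at least 20 counts over that pair, replicate 1 held over 5 times the CPM of replicate 2 in 12, and replicate 2 exceeded replicate 1 by that ratio in 0. Over all rows with that many counts the share was 0.357%. At 10 dpf, replicate 2 was over 1.5 times replicate 1 in 6 of 90 members with at least 20 counts in both, against 1.84% of 15544 rows. These were atp4a, LOC113539624, LOC113527478, LOC113534331, LOC113531715 and LOC113535737, with ratios of 1.77 to 3.13, and all 6 are among the genes called between 11 and 10 dpf.

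**Figure D2:**
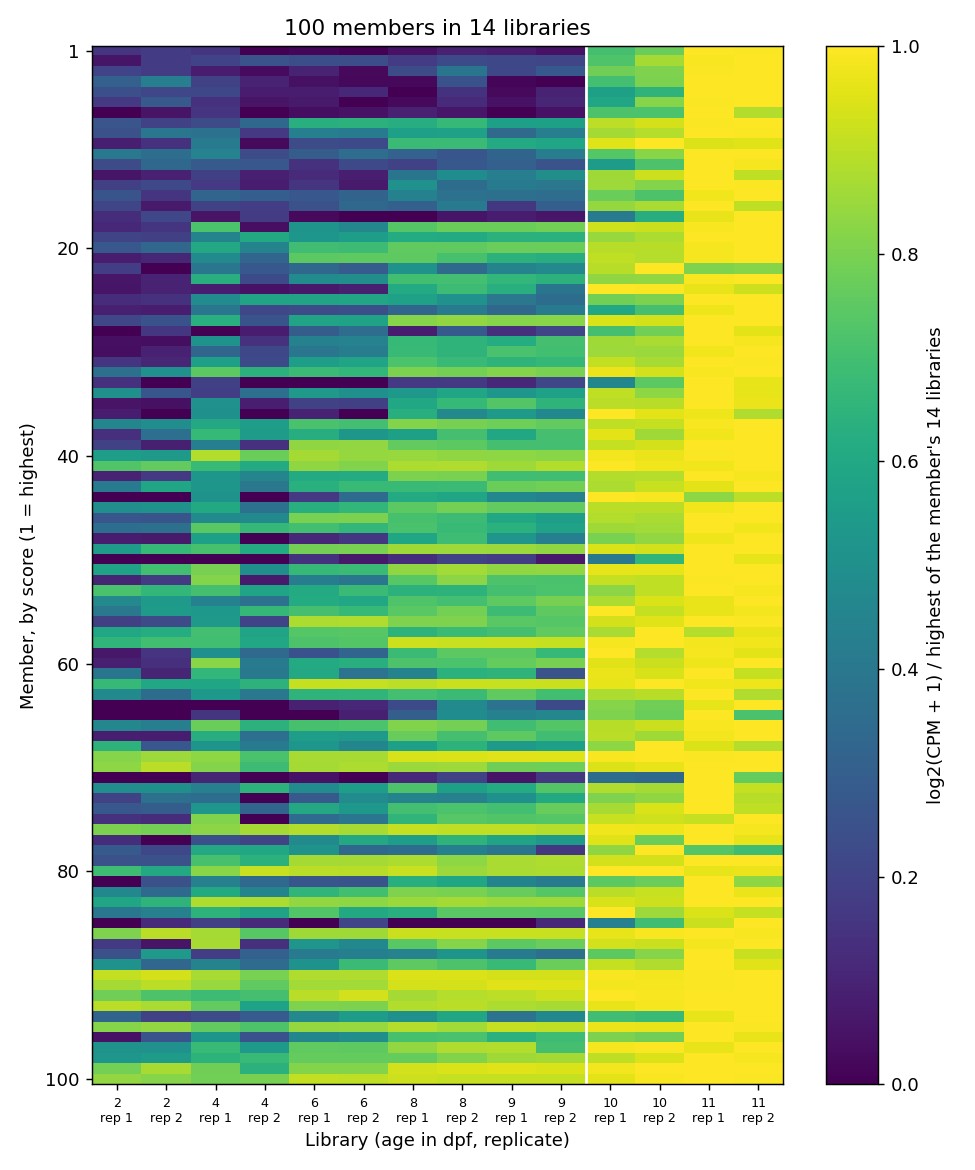
Each row is a member, ordered by score from 1 at the top to 100, and each column a library labelled by age in dpf and replicate; colour is log2(CPM + 1) divided by the highest of that member's 14 libraries. Dark cells left of the white line, near the top, are members close to absent before 10 dpf, while most rows lower down are already green or yellow by 6 to 9 dpf, and the 4 dpf replicates differ in many rows.

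The genes of the acid pump of the stomach stayed low up to 9 dpf. The catalytic subunit gene atp4a had the second highest score. In the 10 libraries of 2 to 9 dpf it ranged from 0.346 to 2.93 CPM, at 10 dpf it measured 47.9 and 103 CPM, and at 11 dpf 202 and 212 CPM. The stages did not overlap, although the 10 dpf libraries differed by more CPM than any other pair. Its partner atp4b, which carries the pump to the membrane, measured between 1.47 and 4.86 CPM before 10 dpf, 17.6 and 25.4 CPM at 10 dpf, and 52.1 and 51.5 CPM at 11 dpf. Both subunit genes therefore stepped in the same order, with 11 dpf wholly above 10 dpf. The claudin gene cldn18, whose product seals tight junctions in the stomach and lung of mammals, was at most 3.20 CPM before 10 dpf, then 11.0 and 13.5 CPM at 10 dpf, and 17.0 and 12.7 CPM at 11 dpf. Unlike the pump subunits, cldn18 was already higher at 8 than at 6 dpf (log2 fold change 3.06, SE 0.49, edgeR adjusted p = 0.00051), and its 10 and 11 dpf libraries overlapped. Of the gastric gland list of 5 genes found in the table, these 3 were members, and 2 of the 5 were called higher at 11 than at 10 dpf.

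Like atp4a, several members known only by identifier had no earlier library above 10% of their mean over 10 and 11 dpf. LOC113531099, with the highest score of all, stayed at or below 1.52 CPM up to 9 dpf, and then measured 38.1 and 54.3 CPM at 10 dpf and 181 and 175 CPM at 11 dpf. LOC113539624 reached 602 and 605 CPM at 11 dpf from 88.7 and 172 CPM at 10 dpf. It was not silent at the start, with 6.05 and 14.6 CPM at 2 dpf, and it was lower at 4 than at 2 dpf (log2 fold change -2.55, SE 0.75, edgeR adjusted p = 0.0113), a call lost without 4 dpf replicate 2 (log2 fold change -1.87, edgeR adjusted p = 0.106). LOC113530553 was at or under 3 counts in all 10 earlier libraries, the only member of the 9 near-absent ones for which that held, and measured 5.65 and 5.60 CPM at 10 dpf and 12.8 and 9.20 CPM at 11 dpf. The other near-absent members were LOC113523927, LOC113530710, LOC113527478, LOC113534331 and LOC113531715, which at 11 dpf lay between 49.4 and 157 CPM. Unlike the pump genes, 2 of the near-absent members were called higher at 8 than at 6 dpf. LOC113523927 had 6 and 1 counts at 6 dpf and 15 and 69 at 8 dpf (log2 fold change 3.54, SE 0.55, edgeR adjusted p = 0.000413). LOC113539624 had 3 and 1 counts at 6 dpf and 1 and 47 at 8 dpf, so its call rests on 8 dpf replicate 2. By Pearson's r of log2(CPM + 1) over the 14 libraries, the members most like atp4a were LOC113530553 (0.98), gipr, the receptor for a gut incretin hormone (0.97), LOC113531099 (0.96), LOC113526235 (0.96) and LOC113536239 (0.96). The pump partner gene atp4b came lower, at 0.95. Of the 10 earlier libraries, gipr was at or under 3 counts in 7 and LOC113536239 in 9. These values of r describe libraries that all share the step at 10 dpf by which the members were chosen, so they tie no gene to the pump.

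**Figure D3:**
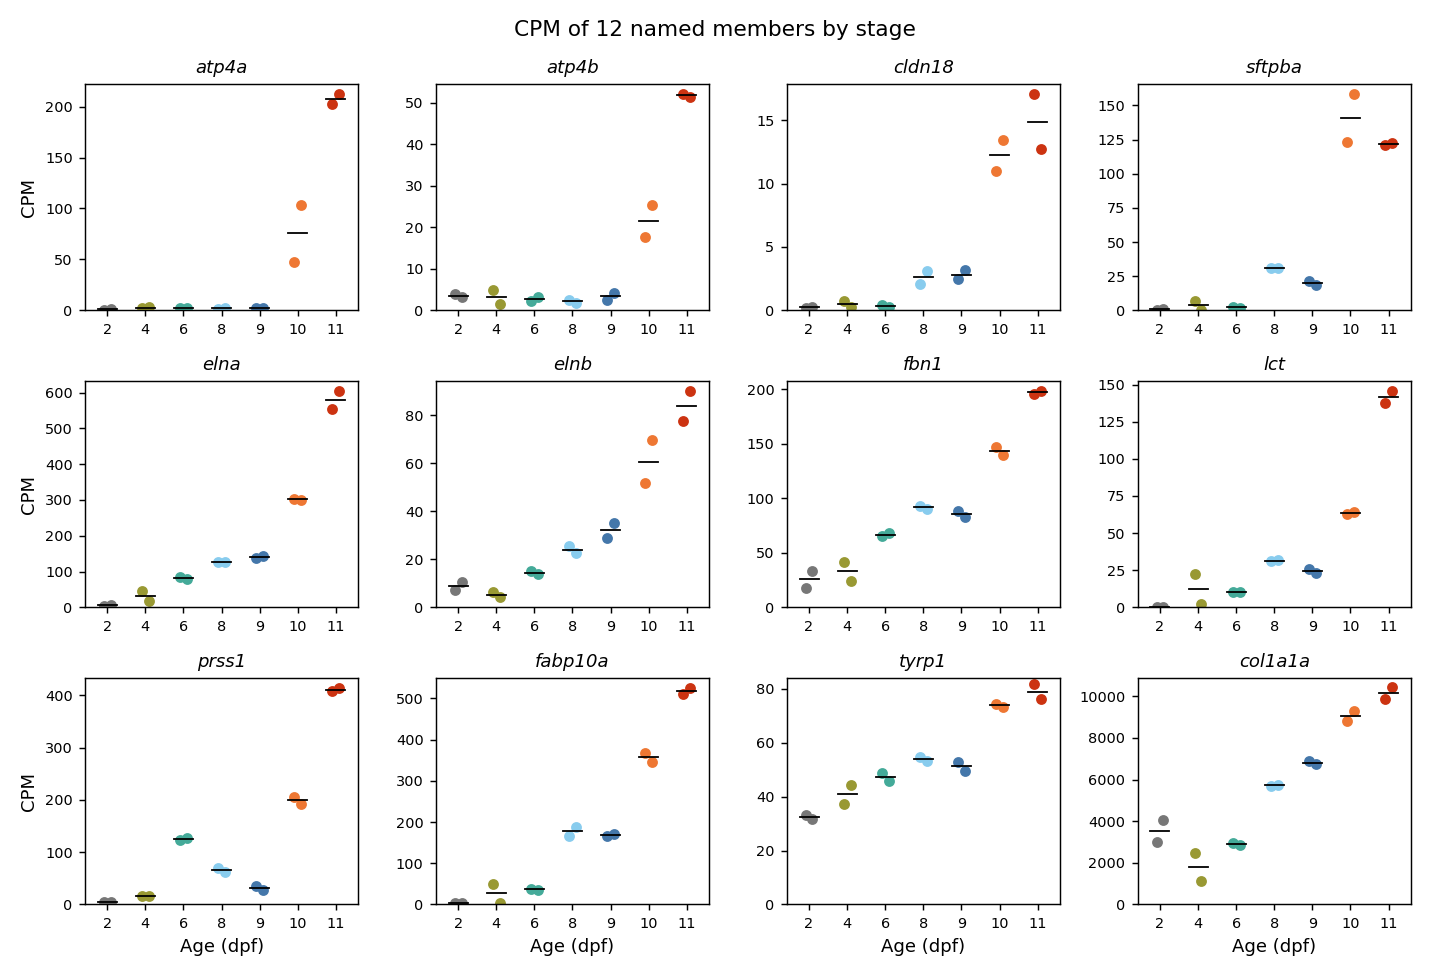
CPM (vertical, linear axes from 0, scaled per gene) against age in dpf for 12 named members; points are the 2 libraries of a stage and the bar is their mean. The pump genes atp4a and atp4b stay near 0 up to 9 dpf and climb again from 10 to 11 dpf, sftpba and cldn18 already show a first step at 8 dpf, prss1 peaks at 6 dpf before its dip, and elna, fbn1, tyrp1 and col1a1a climb over several stages.

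The surfactant protein B gene sftpba, whose product spreads surfactant lipid over an air-facing surface, came in 2 steps. At 2 dpf it measured 0.518 and 1.06 CPM, at 4 dpf 7.05 and 0.147 CPM, and at 6 dpf 2.23 and 2.03 CPM. At 8 dpf it measured 30.8 and 30.7 CPM, at 9 dpf 21.3 and 18.8 CPM, at 10 dpf 124 and 158 CPM, and at 11 dpf 121 and 123 CPM. The increase from 6 to 8 dpf passed the test (log2 fold change 4.04, SE 0.45, edgeR adjusted p = 3.47e-05), before the step at 10 dpf that chose the gene. Both 11 dpf libraries lay below both 10 dpf libraries, but that difference did not pass (log2 fold change -0.29, SE 0.29, edgeR adjusted p = 0.626). It was the only member among 15 genes found of the swim bladder and lung surfactant list.

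The elastic fibre members were well detected before 10 dpf. The grouping of elastic fibre, fibrillar collagen, smooth muscle and pigment genes was made after their values were seen and is given as a description. Elastin a (elna) measured 4.67 and 7.28 CPM at 2 dpf, 46.2 and 16.7 CPM at 4 dpf, 83.9 and 80.6 CPM at 6 dpf, 126 and 125 CPM at 8 dpf, and 137 and 144 CPM at 9 dpf. At 10 dpf it measured 303 and 301 CPM, and at 11 dpf 553 and 603 CPM. It was called higher at 4 than at 2 dpf (log2 fold change 2.58, SE 0.35, edgeR adjusted p = 1.9e-05) and at 6 than at 4 dpf (log2 fold change 1.37, SE 0.29, edgeR adjusted p = 0.00179). The second of these calls was lost without 4 dpf replicate 2, where the log2 fold change was 0.80, and the first was kept without either 4 dpf library, at 1.74 and 3.17. The 11 dpf libraries were wholly above those of 10 dpf, yet the difference did not pass (log2 fold change 0.86, SE 0.26, edgeR adjusted p = 0.0774). That SE draws on all 14 libraries, with the uneven 4 dpf pair of elna among them. It therefore does not measure the spread at 10 and 11 dpf alone. The second elastin gene elnb ran lower, from 4.40 to 35.2 CPM before 10 dpf, then 51.6 and 69.6 CPM at 10 dpf, and 77.8 and 90.2 CPM at 11 dpf. Its symbol comes from the RefSeq gene table. The paper lists it as the uncharacterized protein LOC113541665, among candidate genes that it reports as present in tra catfish and absent from channel catfish. Fibrillin 1 (fbn1), the main microfibril protein, measured 147 and 139 CPM at 10 dpf and 196 and 199 CPM at 11 dpf, against at most 92.6 CPM before. The latent TGF-beta binding protein gene ltbp4 and the fibulin gene fbln5, which help to assemble elastin onto microfibrils, averaged 137.5 CPM at 10 dpf and 139.2 CPM at 11 dpf for ltbp4, and 63.4 and 64.6 CPM for fbln5, and neither difference passed (edgeR adjusted p = 0.863 and 0.872). The genes elnb, ltbp4 and fbln5 were called higher at 6 than at 4 dpf, with log2 fold changes of 1.41, 1.28 and 1.30, and of 1.63, 1.49 and 1.21 without 4 dpf replicate 1 and 1.17, 1.08 and 1.43 without replicate 2. In all, 5 of 30 elastic fibre genes found were members.

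The collagen members were abundant long before 10 dpf, while the other matrix members ranged from low to moderate levels. Type I collagen gene col1a1a was the most abundant member, with 1105 to 6904 CPM in the earlier libraries, 8824 and 9290 CPM at 10 dpf, and 9870 and 10433 CPM at 11 dpf. Its score was only 0.35. The paralog col1a1b measured 7290 and 7785 CPM at 10 dpf and 7729 and 8063 CPM at 11 dpf, and col5a2a and col5a2b, which encode type V chains that join type I fibrils, had scores of 0.36 and 0.50. These 4 entered because the table lists them by LOC identifier, while rows named col were left out. The genes col1a1a, col1a1b and col5a2b were called higher at 8 than at 6 dpf, with log2 fold changes of 1.19, 1.14 and 1.92. The way the counting treated reads shared between paralogs such as col1a1a and col1a1b is not given in the sources used here. Either count may be affected by it. Of the other matrix members, coch (cochlin, a secreted protein best known from the inner ear) had the highest score, 2.00. It was called higher at 6 than at 4 dpf, where it had measured 4.86 and 1.17 CPM (a call lost without 4 dpf replicate 2, where the log2 fold change was 0.36), and at 8 than at 6 dpf. It fell from 13.4 and 13.95 CPM at 8 dpf to 4.12 and 6.53 CPM at 9 dpf (log2 fold change -1.49, SE 0.31, edgeR adjusted p = 0.0131) and then measured 58.7 and 66.5 CPM at 10 dpf and 113 and 109 CPM at 11 dpf. Thrombospondin 2a (thbs2a), fndc1, dermatopontin (dpt), biglycan a (bgna), lamb1b and ccn4b had scores between 0.34 and 0.62. Before 10 dpf dpt was at most 3.27 CPM, bgna at most 8.48 CPM and ccn4b at most 10.6 CPM.

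Skeletal members rose early. The cartilage matrix gene ucmaa measured 1.21 and 1.06 CPM at 2 dpf, 4.62 and 9.24 CPM at 4 dpf, 24.7 and 27.8 CPM at 10 dpf, and 44.9 and 45.5 CPM at 11 dpf, and it was called higher at 4 than at 2 dpf (log2 fold change 2.93, SE 0.36, edgeR adjusted p = 7.39e-06), with a log2 fold change of 3.28 or 2.25 without 4 dpf replicate 1 or 2. The osteocalcin-like gene bglapl, a bone matrix gene, measured 84.3 and 83.5 CPM at 8 dpf, 46.1 and 45.9 CPM at 9 dpf, 134 and 137 CPM at 10 dpf, and 256 and 239 CPM at 11 dpf. Both had an adjusted p under 0.05 for 11 against 10 dpf, of 0.0346 and 0.0113 in edgeR, with log2 fold changes of 0.70 and 0.78 that did not pass the threshold of 1. Muscle members were spread over muscle types. The smooth muscle genes acta2 and myh11a had scores of 0.32 and 0.37 and were never below 89.8 CPM. Sarcolipin (sln), a regulator of the calcium pump of striated muscle, was at most 0.689 CPM before 10 dpf and had the lowest 11 dpf mean of all members, 1.94 CPM ± 0.083 (SD, n = 2). The calcium buffer pvalb4 averaged 443.6 CPM at 10 dpf and 696.2 CPM at 11 dpf.

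The digestive and liver members prss1, ela2l, lct, fabp10a and cp were detected well before 10 dpf. The members gipr and pla2g4c were lower, at most 0.813 and 2.79 CPM before 10 dpf. Trypsinogen gene prss1 measured 16.3 and 16.7 CPM at 4 dpf, 123 and 126 CPM at 6 dpf, 70.6 and 61.5 CPM at 8 dpf, and 35.0 and 27.9 CPM at 9 dpf, and then 205 and 193 CPM at 10 dpf and 408 and 413 CPM at 11 dpf. It was called higher at 4 than at 2 dpf and at 6 than at 4 dpf, and fell from 8 to 9 dpf (log2 fold change -1.19, SE 0.15, edgeR adjusted p = 0.000436). Its 11 dpf level was above that of 10 dpf with edgeR adjusted p = 0.00153, at a log2 fold change of 0.96 (SE 0.14) that stopped just short of the threshold. The elastase gene ela2l had a like early peak, with 297 and 299 CPM at 6 dpf, 124 and 118 CPM at 9 dpf, and 655 and 634 CPM at 11 dpf. Lactase (lct), an enzyme of the intestinal brush border, measured 31.4 and 31.7 CPM at 8 dpf, 63.1 and 64.3 CPM at 10 dpf, and 138 and 145 CPM at 11 dpf. The liver fatty acid carrier fabp10a measured 166 and 189 CPM at 8 dpf, 368 and 347 CPM at 10 dpf, and 512 and 524 CPM at 11 dpf. At 4 dpf all 3 of ela2l, lct and fabp10a belonged to the members that differed within the pair, with 31.6 and 2.64 CPM for ela2l, 22.4 and 2.05 CPM for lct, and 50.1 and 4.11 CPM for fabp10a. Of 20 enterocyte genes found 1 was a member, as was 1 of 8 exocrine pancreas genes. Ceruloplasmin (cp), the copper carrier of plasma, went the other way after 10 dpf, from 300 and 295 CPM to 243 and 251 CPM, a difference that did not pass (edgeR adjusted p = 0.418).

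Pigment and blood members had low scores. The melanin enzyme gene tyrp1 measured 31.8 to 54.7 CPM in the earlier libraries, 74.5 and 73.4 CPM at 10 dpf, and 81.7 and 76.2 CPM at 11 dpf. The melanocortin receptor mc1r, the organelle transport gene mreg and the endothelin receptor ednrba, also genes of pigment cells, scored between 0.36 and 0.44, and with tyrp1 they were 4 of 19 pigment cell genes found. The adult alpha globin gene hbaa2 was hardly detected, with 7 counts in each 10 dpf library (1.13 and 1.06 CPM), and 52 and 27 counts at 11 dpf (7.51 and 4.14 CPM). Of 19 erythroid genes found 1 was a member. The globin gene hbae5, left out by identifier, had a higher score, 1.25. It measured 131 and 211 CPM at 10 dpf and 332 and 380 CPM at 11 dpf. The lists of goblet cell, lymphocyte, antigen presentation, myeloid, interferon, epidermis, ionocyte, liver plasma protein, detoxification, peptide hormone, photoreceptor, clock and stress genes had 0 members. Only 100 of all 21656 rows are members, so short lists can be without one, and nothing is read from these counts. They also depend on what each list holds. The liver plasma protein list lacks cp and the exocrine pancreas list lacks ela2l, and listed rows named slc, kcn or col could not be members.

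Whether the members increased at 10 dpf for the first time was asked of the steps between earlier stages. The choice keeps every earlier library below the late ones, so a gene that starts above its late level could not be a member. A fall between earlier stages stayed possible below that level. The balance of higher and lower calls is thus in part set by the choice. The shares over all genes are given for scale, and nothing is read from the difference. A gene was called where edgeR gave an adjusted p below 0.05 together with a log2 fold change larger than 1 in size. From 2 to 4 dpf 40 members were called higher, against 13.8% of all genes tested, and 1 was called lower, against 5.99%. From 4 to 6 dpf 17 were called higher, against 4.81%, and 0 lower, against 6.48% (6 members were lower at an unadjusted p under 0.05). From 6 to 8 dpf 33 were called higher, against 3.02%, and 0 lower, against 2.72% (1 at an unadjusted p under 0.05). From 8 to 9 dpf 0 were called higher, against 0.461% (2 at an unadjusted p under 0.05), and 3 lower, against 0.818%, namely coch, si:dkey-152b24.7 and prss1. In all, 62 of the 100 members were called higher in at least 1 earlier step, against 20.6% of all genes, and 27 in at least 2, against 1.43%. In the steps to 6, 8 and 9 dpf alone 47 were called higher, against 8.13%. For these members the description as genes rising only at 10 to 11 dpf does not hold, and the 100 are better described as genes at their highest at 10 and 11 dpf. A member without an earlier call is not shown to have been flat, since a member such as LOC113530553, with 0 to 2 counts in each earlier library, had too few for a call.

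The counts of the steps to and from 4 dpf depended on the 4 dpf pair. Shares over all genes are not set beside the counts of these refits. The shifts are therefore not read as a trait of the members. Without 4 dpf replicate 1, 23 members were called higher and 8 lower from 2 to 4 dpf, and 43 higher and 1 lower from 4 to 6 dpf. Without 4 dpf replicate 2 the counts were 44 higher and 0 lower from 2 to 4 dpf, and 12 higher and 11 lower from 4 to 6 dpf. The step from 6 to 8 dpf compares no 4 dpf library, but its test shares an estimate of the spread with the 4 dpf pair. It held 18 and 19 higher calls without 6 dpf replicate 1 or 2, and 11 when the libraries of 6, 9 and 11 dpf, which differ little within a stage, were summed by stage. Of the 5 members with the largest fitted changes called from 6 to 8 dpf, LOC113524821 (log2 fold change 4.09) and sftpba (4.04) had more than 3 counts in each 6 dpf library. The other 3 were at or under 3 counts in both, so no fold change is given. The lipocalin gene apodb went from 2 and 2 counts at 6 dpf to 32 and 67 at 8 dpf, LOC113526175 from 2 and 0 to 18 and 18, and LOC113531908 from 0 and 1 to 4 and 12. From 4 to 6 dpf the largest log2 fold changes were those of LOC113530463, 4.80, ela2l, 4.19, LOC113542411, 3.25, LOC113532347, 3.17, and prss1, 2.84. From 2 to 4 dpf they were LOC113524829, 5.80, LOC113528988, 5.04, LOC113545387, 4.92, and lct, 4.65, beside LOC113525344, which had 0 counts in both 2 dpf libraries and 8 and 0 at 4 dpf. In all 5 of these last genes 4 dpf replicate 1 was high and replicate 2 low, as with 83.2 and 1.03 CPM for LOC113524829, and 77.8 and 0.293 CPM for LOC113528988. Without 4 dpf replicate 1 the log2 fold change was 0.61 for LOC113524829, -1.80 for LOC113528988, -0.95 for LOC113545387 and 2.31 for lct, and of these 4 only lct kept its call.

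**Figure D4:**
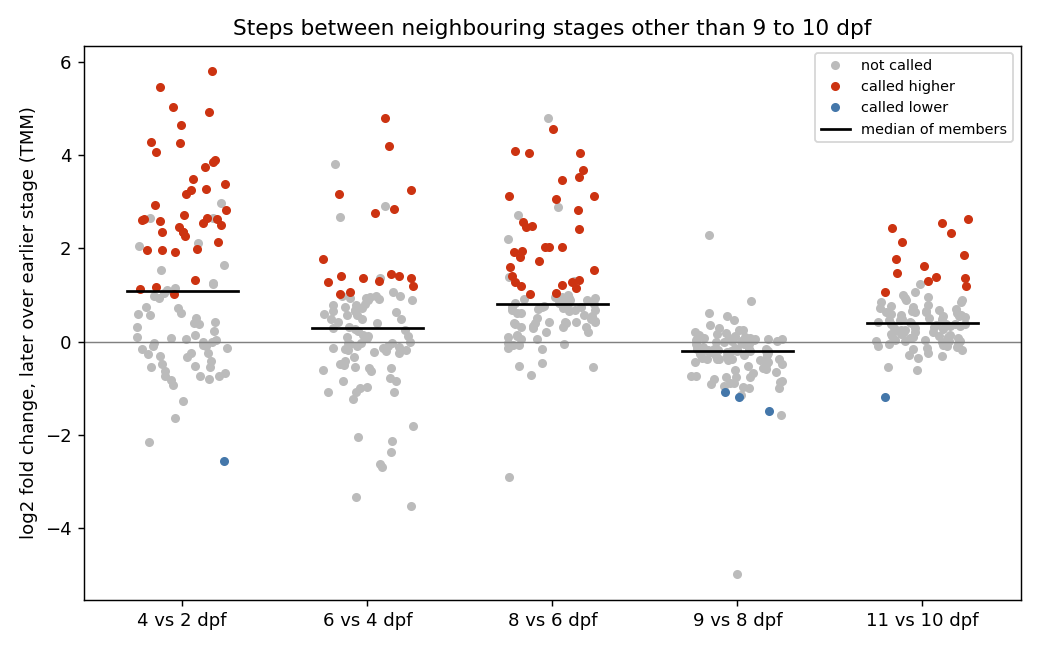
Log2 fold change (vertical, later over earlier stage) of the 100 members in the 5 steps between stages other than 9 to 10 dpf, 1 point per member with random horizontal spread; red and blue points are called higher and lower, and the black bar is the members' median. In the 3 steps up to 8 dpf 40, 17 and 33 members are called higher, the median lies below 0 from 8 to 9 dpf, and 14 are called higher and 1 lower from 10 to 11 dpf.

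The step from 10 to 11 dpf was tested in full, because the choice did not name which of these stages is higher. The choice did use these same 4 libraries, and the lowest of them lay at 10 dpf for 88 members. It may thus favour genes still rising, so the values over all genes are given for scale and nothing is read from the difference. Of the 100 members, 83 had a higher fitted level at 11 dpf, and in 77 both 11 dpf libraries exceeded both 10 dpf libraries in CPM. The share of all rows that did so was not counted, so no excess is read from the 77. The members' median log2 fold change was 0.39, beside a median of 0.00 over all 19310 genes tested. A total of 14 members were called higher, against 0.699% of all genes, and 1 was called lower, against 0.445%. The pump genes were among the 14, with log2 fold changes of 1.37 for atp4a (SE 0.24, edgeR adjusted p = 0.00621) and 1.18 for atp4b (SE 0.22, edgeR adjusted p = 0.00811). The phospholipase gene pla2g4c, which releases fatty acids from membrane lipids, measured 9.52 and 7.86 CPM at 10 dpf and 18.5 and 19.8 CPM at 11 dpf (log2 fold change 1.06, SE 0.19, edgeR adjusted p = 0.00711). The globin gene hbaa2, hardly detected at 10 dpf, was higher by 2.32 on the log2 scale (SE 0.45, edgeR adjusted p = 0.0113). Its call was lost in 5 of 22 alternative settings, and those of atp4a, atp4b and pla2g4c in 4 each.

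The other 10 genes called higher have no symbol. The largest change was that of LOC113531715, from 4.36 and 11.5 CPM at 10 dpf to 49.4 and 56.3 CPM at 11 dpf (log2 fold change 2.64, SE 0.29, edgeR adjusted p = 0.000178). LOC113530710 followed with 12.7 and 19.1 CPM against 97.6 and 98.6 CPM (log2 fold change 2.54), and LOC113534331 with 15.0 and 37.7 CPM against 157 and 147 CPM (log2 fold change 2.44). The log2 fold change was 2.13 for LOC113539624, 1.86 for LOC113531099, 1.77 for LOC113527478, 1.61 for LOC113534665, 1.47 for LOC113536239, 1.38 for LOC113523927 and 1.30 for LOC113537745. LOC113536239 had only 7 and 16 counts at 10 dpf, and its call was lost in 14 of 22 alternative settings. The gene called lower was LOC113535737, from 14.8 and 26.3 CPM at 10 dpf to 10.25 and 8.74 CPM at 11 dpf (log2 fold change -1.20, SE 0.31, edgeR adjusted p = 0.0421). In this gene, as in atp4a, 10 dpf replicate 2 was the higher of its pair. The call of LOC113535737 was lost in 11 of the 22 settings.

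These calls rest on the 11 dpf libraries as replicates. In the fit with summed libraries, given next, 11 dpf has 1 library and hardly any gene of the whole table was called. The loss of calls there is therefore no result about the members. After the libraries of 6, 9 and 11 dpf were summed by stage, 0 members were called by edgeR between 11 and 10 dpf, while 15 were higher and 1 lower at an unadjusted p below 0.05 with a log2 fold change larger than 1 in size, and the smallest adjusted p among members was 0.0542. DESeq2 on all libraries called 10 higher and 0 lower. Without 10 dpf replicate 1 the count of higher calls was 7, without 10 dpf replicate 2 it was 10, without 11 dpf replicate 1 it was 6 and without 11 dpf replicate 2 it was 7. The size of the change moved with the 10 dpf library used. Without 10 dpf replicate 1 the log2 fold change was 0.91 for atp4a, 0.94 for atp4b, 1.17 for LOC113527478, 2.11 for LOC113531715 and -1.56 for LOC113535737, and without replicate 2 it was 2.04, 1.48, 2.83, 3.52 and -0.72 in the same order. Of the 15 genes called, 6 lost the call only when the pairs were summed.

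Some members lie side by side. Of the 84 members placed in the gene order of fPanHyp1.pri, 14 form 7 pairs of near neighbours, 6 of them with 0 counted genes between. LOC113531099 and LOC113531715, the first and the seventeenth by score, are such a pair and both were called higher at 11 than at 10 dpf. In the pair LOC113536239 and LOC113536238 the first was called higher (5.48 and 5.06 CPM at 11 dpf), while the second, at 6.35 and 5.06 CPM, was not. The elastase gene ela2l neighbours LOC113530463, and both were at their lowest at 2 dpf and in 4 dpf replicate 2, with 297 and 299 CPM for ela2l and 209 and 210 CPM for LOC113530463 at 6 dpf. The other pairs are LOC113524821 with LOC113524829, LOC113528988 with LOC113529045, LOC113532331 with LOC113531956, and, with 1 gene between, LOC113530412 with LOC113530553. Whether neighbours are alike in sequence was not examined, and how the counting treated reads shared between like genes is not given.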

How the data were processed

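RNA-seq libraries of 14 samples, 2 for each of 7 stages, were analysed from the count table deposited by the authors, which holds raw whole counts per gene. Per the labels and the study's methods, the authors trimmed reads with Trimmomatic 0.36, aligned them to GENO_Phyp_1.0 with STAR 2.7.0 and counted with HTSeq. The strand setting is not given in the sources used here. A total of 0 sample columns went unused.

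CPM was the count over the column total. The 19310 genes passing filterByExpr, all 100 members among them, were fitted with TMM scaling and the quasi-likelihood test of edgeR 4.0.16 (R 4.3.3) over all 14 libraries, and p-values were adjusted by Benjamini-Hochberg over all genes tested. Members passed the filter through the libraries they were chosen on. The standard error is the log2 fold change over the square root of F. All steps of a gene share an estimate of spread, so disagreement within the pair of any stage enters the test of every step. No test was run for 10 and 11 dpf against earlier stages, which chose the members. The code was tested on simulated data. DESeq2 1.42.0 was an alternative.

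Members and lists were chosen with earlier results of these data known. Genes were named by rule: the 20 highest scores, the 5 lowest and 5 just outside, those called between 11 and 10 dpf, listed genes, neighbours, extremes of CPM at 11 dpf, and the leading calls of each earlier step. Elastic fibre, collagen, other matrix, smooth muscle and pigment genes, cp, fabp10a, gipr and LOC113526235 were picked after their values were seen. Of 11307 LOC rows, 10538 were found by identifier in the RefSeq gene table, and a row found there need not have a symbol. Promoter and protein sequences were not used here.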

Additional observations from a re-analysis of the deposited data

How the results depend on the processing

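For 11 against 10 dpf, the 14 higher calls became 14 with RLE size factors, 16 with library totals, 13 without a low-count filter, 10 with DESeq2, 16 at unadjusted p, 16 in a fit of 4 libraries and 0 with summed pairs, and leaving out single libraries gave 6 to 16. The lower call was lost (0) with library totals, DESeq2 and summed pairs, and single libraries gave 0 to 1. The replicate block gave 13 higher and 0 lower calls. No pairing of same-numbered libraries was seen (correlations between stages of -0.159 to 0.059), though this cannot exclude one. The main fit held no replicate block. From 8 to 9 dpf the 3 calls became 5 at unadjusted p and 0 with summed pairs, and 1 to 5 without single libraries. From 6 to 8 dpf the 33 calls became 11 with summed pairs and 18 to 36 without single libraries. From 4 to 6 dpf the 17 calls became 11 in a fit of 4 libraries, 11 with summed pairs, and 13 to 44 without single libraries. From 2 to 4 dpf the 41 calls became 24 in a fit of 4 libraries and 31 to 44 without single libraries. Of the members, 94 would be chosen on TMM-scaled CPM, 98 and 97 with a pseudocount of 0.5 or 2, 74 on stage means, and 78 to 100 without single libraries. Library totals in place of TMM moved the median log2 fold change of all genes from 0.00 to -0.25 for 4 against 2 dpf and from -0.05 to -0.26 for 8 against 6 dpf. In a fit that leaves a stage with 1 library, that library is assumed to vary like the others. No direction among the 15 called genes turned in the 22 alternatives. Most of these keep the same 10 and 11 dpf libraries, so no support is drawn from this. The cause of the changes between settings was not tested, beyond the fewer libraries in some fits. Depth limits members such as sln, mc1r and LOC113526235, with 11 dpf means of 1.94, 2.15 and 2.01 CPM.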
